A study of Mus musculus with 12 samples.

Results

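KAT7 (HBO1) is a histone acetyltransferase of the MYST family, and 9 genes encode the proteins known to assemble with it: the scaffolds Brd1, Brpf1, Brpf3, Jade1, Jade2 and Jade3, the readers Ing4 and Ing5, and the small accessory subunit Meaf6. These genes and Kat7 were taken by symbol from the deposited count table, and all 10 were present among 25867 genes with a symbol. All 10 also passed the filter on low counts, as did 18670 genes in all. The libraries were made from thymic epithelial cells (TECs) sorted out of fetal thymic organ cultures, in which the lobes of embryos keep their architecture in a dish.

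The study has 4 groups of 3 biological replicates on a C57BL/6 background. The Kat7 knockout cultures carried RosaCre-ERT2 and Kat7 fl/fl and received tamoxifen, which activates this Cre in the cells of the lobe at large and not in TECs alone. The control cultures also received tamoxifen. The headers of the control count columns read wt, but the labels do not say which alleles the controls carried, or whether Cre was among them. The WM-3835 cultures were wild type and received this inhibitor of KAT7, with no dose or duration given, and the DMSO cultures were wild type and received the solvent. The inhibitor titles spell the compound WM-3825, against WM-3835 in the treatment field. Lobes of every group came from E15.5 embryos and were freed of thymocytes over 4 to 5 days in 1.35 mM 2'-deoxyguanosine, and then given a RANK-activating antibody at 10 µg/mL for 3 days. RANK signalling drives maturation of the medullary epithelium and expression of AIRE, which lets TECs transcribe antigens of other tissues.

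KAT7 works within multi-subunit complexes, and its scaffold sets which histone it acetylates. BRPF scaffolds (Brd1, also called Brpf2, with Brpf1 and Brpf3) direct the enzyme mainly to histone H3, and JADE scaffolds direct it mainly to histone H4. ING4 and ING5 carry a PHD finger that binds methylated histone H3, and MEAF6 supports assembly and activity. Some subunits are shared: BRPF1, ING5 and MEAF6 also serve the KAT6A and KAT6B complexes, and MEAF6 serves the TIP60 complex as well. Acetylation by KAT7 is known from replication origins, where it supports loading of the MCM helicase, and from promoters.

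The reference annotation of mm10 (GRCm38.p6) lists each of the 10 genes as protein-coding. Kat7 (Entrez ID 217127) lies on the minus strand at chr11:95271853-95310246. Promoters, 250 bases before to 50 after a RefSeq start, are shown for the gene that was deleted and for those whose RNA passed the test in the knockout or with the inhibitor, where the RefSeq promoter table (GRCm38.p6) has an entry; 9 of the 10 genes have one, and Jade2 is named only. For Jade1, which has 4 listed starts, the start with the most CpG dinucleotides (38) is shown. Capitals mark matches, on either strand, to motifs described after the sequences.
Kat7, chr11:95310197-95310496, minus strand: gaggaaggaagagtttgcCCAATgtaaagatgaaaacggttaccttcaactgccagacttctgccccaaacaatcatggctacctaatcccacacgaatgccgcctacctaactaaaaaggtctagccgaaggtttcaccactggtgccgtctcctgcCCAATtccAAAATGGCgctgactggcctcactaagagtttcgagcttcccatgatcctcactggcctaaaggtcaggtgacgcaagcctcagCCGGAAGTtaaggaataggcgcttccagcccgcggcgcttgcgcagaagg
Brpf3, chr17:28800876-28801175, plus strand: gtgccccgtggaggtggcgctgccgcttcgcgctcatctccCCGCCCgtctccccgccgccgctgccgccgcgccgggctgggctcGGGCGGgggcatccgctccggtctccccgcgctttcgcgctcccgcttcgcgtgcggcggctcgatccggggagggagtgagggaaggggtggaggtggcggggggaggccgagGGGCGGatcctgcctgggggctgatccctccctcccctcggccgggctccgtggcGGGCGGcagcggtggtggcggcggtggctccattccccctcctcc
Jade1, chr3:41563501-41563800, plus strand: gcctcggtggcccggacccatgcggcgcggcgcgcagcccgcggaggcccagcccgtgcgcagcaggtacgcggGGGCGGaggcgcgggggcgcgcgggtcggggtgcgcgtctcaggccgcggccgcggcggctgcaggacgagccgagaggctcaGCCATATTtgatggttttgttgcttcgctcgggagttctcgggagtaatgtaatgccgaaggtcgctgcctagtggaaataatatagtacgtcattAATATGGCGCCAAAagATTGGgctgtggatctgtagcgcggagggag
Ing4, chr6:125039598-125039897, plus strand: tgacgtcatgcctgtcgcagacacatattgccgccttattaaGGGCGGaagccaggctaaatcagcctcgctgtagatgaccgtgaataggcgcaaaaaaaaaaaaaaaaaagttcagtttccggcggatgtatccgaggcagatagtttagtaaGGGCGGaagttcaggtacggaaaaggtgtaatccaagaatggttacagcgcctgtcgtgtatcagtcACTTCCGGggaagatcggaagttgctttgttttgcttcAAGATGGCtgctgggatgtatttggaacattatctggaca
Meaf6, chr4:125084884-125085183, plus strand: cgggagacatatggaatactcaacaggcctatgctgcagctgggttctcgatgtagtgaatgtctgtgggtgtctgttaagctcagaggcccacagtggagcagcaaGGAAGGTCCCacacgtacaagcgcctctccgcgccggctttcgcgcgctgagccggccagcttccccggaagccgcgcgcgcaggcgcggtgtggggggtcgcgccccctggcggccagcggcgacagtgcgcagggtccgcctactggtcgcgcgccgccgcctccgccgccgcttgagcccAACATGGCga

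The motifs searched on both strands were CCAAT (the CCAAT box), GGGCGG (the GC box), CACGTG (the E-box), CCGGAAGT (ETS), AANATGGC (YY1), TATAAA (the TATA box), TTTGGCGC (E2F) and the kappaB motif. The YY1 letters stood in the windows of 5 of the 9 genes at any listed start (Kat7, Jade1, Ing4, Ing5 and Meaf6), against 6.05% of 32851 promoter windows of the same length. Relative to the start, the match began at position 4 in Jade1, 11 in Ing4, 36 in Ing5, 41 in Meaf6 and -84 in Kat7, and Jade1 held a further match at -93. GC boxes stood in 7 of 9 genes (at any listed start), against 35.7% of all windows, and the TATA box in 0 of 9, against 13.6%. The CCAAT box stood in 3 of 9 genes (37.4% of windows), ETS in 2 (3.89%) and kappaB in 2 (8.46%). The E-box stood in 1 gene (7.15% of windows) and E2F in 1 (0.514%). These counts are per gene and Jade1 has 4 listed starts, while the shares are per window. In the Jade1 window the E2F match overlaps a YY1 match. The windows of Brpf3 and Meaf6 printed above held 40 and 34 CpG dinucleotides, that of Ing4 held 16 and that of Kat7 held 14, against a median of 7 over all windows. The Jade1 window was chosen for its CpG count of 38, and those at its other listed starts held 14 to 25. A match is a description of sequence and not of binding.

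Total counts ran from 26656847 to 52368012 per library. The gene Rn45s took 0.664% of the counts in control 1 and 0.165% to 0.265% in every other library. The 10 epithelial markers Epcam, Krt5, Krt8, Krt14, Krt18, Foxn1, Psmb11, Aire, Cd74 and H2-Aa were detected in all 4 groups, and together they gave 16300 to 17000 CPM (counts scaled by library size) in Kat7 knockout, 16800 to 19500 in control, 14400 to 16300 in WM-3835 and 16300 to 18900 in DMSO libraries. Xist, the RNA of the inactive X chromosome, was mixed in the knockout and low in every control. Knockout 1, 2 and 3 gave 1710, 1190 and 4.94 CPM, while controls gave 2.34 to 3.17 CPM. Xist ran at 846 to 2120 CPM in WM-3835 and 1380 to 1900 CPM in DMSO libraries. Summed over 7 fibroblast markers, all detected in every group, knockout libraries gave 45.1 to 53.4 CPM and control libraries 108 to 153 CPM. They summed to 42.6 to 53.2 CPM in WM-3835 and 52.8 to 67.7 CPM in DMSO libraries. B-cell markers (3, of which Ms4a1 was at 0 in the knockout) summed to 0.661 to 1.88 CPM in the knockout and 2.29 to 3.12 CPM in the control libraries. In bulk RNA, fewer cells of a type and less RNA per cell cannot be told apart.

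Levels were compared between genes as RPKM, here TMM-scaled CPM divided by the gene length in kilobases given in the table. In the control libraries Ing4 was highest at 55.6 ± 9.11 RPKM (SD, n = 3, as for all group means here), followed by the scaffold gene Brd1 at 36.8 ± 2.5 and by Meaf6 at 21 ± 7.27. Brpf3 (16.5 ± 1.33), Jade1 (15.1 ± 0.532), Kat7 (13.5 ± 1.24) and Brpf1 (13.1 ± 0.888) followed, and from Meaf6 to Brpf1 each gene overlapped the next over the 3 libraries. Jade2 (11.7 ± 0.0903), Ing5 (9.71 ± 0.565) and Jade3 (6.53 ± 1.67) closed the order without overlap. Kat7 thus stood in the middle of the 10 in the control group, at percentile 65.4 of all tested genes, while Ing4 stood at percentile 92.9.

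The order at the top was similar in the other groups. Ing4 was first in every group, at 55.2 ± 4.02 RPKM in knockout, 76.8 ± 4 in WM-3835 and 59.4 ± 3.07 in DMSO libraries. Brd1 was second in knockout, control and DMSO libraries. With WM-3835, Meaf6 was second at 38.9 ± 0.979 RPKM and Brd1 came next at 29.8 ± 0.504, and their libraries did not overlap. Jade3 was last of the partners in every group, at 6.53 to 8.56 RPKM. Among the ING readers, Ing4 made up 80.5% to 86.9% of the summed RPKM in every one of the 12 libraries. The order at the top rests on the division by gene length, which is 876 bases for Meaf6, 1617 for Ing4 and 5137 for Brd1. By CPM without gene length, Brd1 ranked 1 of the 10 in every group. Ing4 then ranked 4 in knockout and 3 in the other groups, and Meaf6 ranked 8 in knockout and 9 in the other groups.

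**Figure D1:**
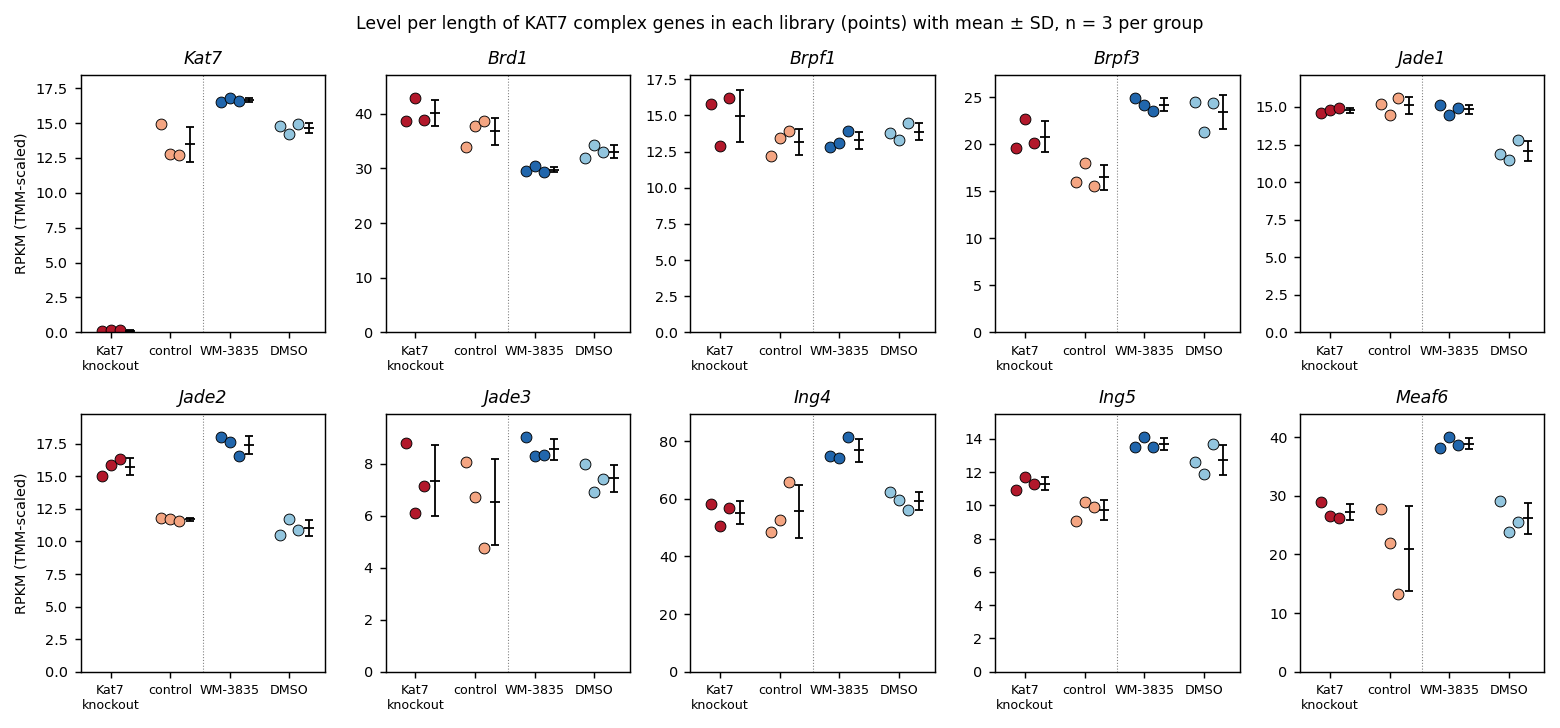
Level of each gene per length (RPKM, vertical axes from 0) in the 12 libraries, with mean and SD (n = 3) beside each group and a dotted line between the 2 comparisons. Kat7 is near 0 in the 3 knockout libraries, Jade2 lies above its controls in both the knockout and the WM-3835 libraries, and among the controls Meaf6 spreads most relative to its mean (coefficient of variation 34.6%).

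Kat7 RNA was almost gone in the knockout. The 3 knockout libraries held 22, 22 and 25 Kat7 counts, against 3762, 3072 and 2730 in the controls. Scaled for depth, that was 0.606, 0.81 and 0.869 CPM in the knockout, against 89, 76.5 and 76 CPM in the controls. The remainder came to 0.753%, 1.01% and 1.08% of the control mean, with exact Poisson intervals of 13.8 to 33.3 counts for knockout 1 and knockout 2 and 16.2 to 36.9 for knockout 3, which cover counting error only. The log2 change was -6.74 (SE 0.13, edgeR adjusted p = 1.31e-16), and it ran from -6.84 to -6.52 over all other settings tried. The counts are summed over the gene, so they do not show from which exons the remaining reads came.

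Kat7 RNA was not lowered by the inhibitor. The WM-3835 libraries gave 98.5, 100 and 99.3 CPM, against 88.4, 84.6 and 88.9 CPM with DMSO. All 3 treated libraries lay above all 3 DMSO libraries; groups did not overlap for 46.1% of all tested genes (23.1% higher and 23% lower with WM-3835). The log2 difference of 0.19 (SE 0.09, 95% interval 0 to 0.37) did not pass over all genes (edgeR adjusted p = 0.159). It passed in a fit of the 6 wild-type libraries (0.18, adjusted p = 0.026) and when each group had its own quality weight (0.18, adjusted p = 0.0114). Between the baselines, DMSO and control, Kat7 overlapped and differed by 0.12 (SE 0.09, adjusted p = 0.378).

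Of the 9 partner genes, Jade2 and Brpf3 rose in the Kat7 knockout and 7 did not pass. That is 22.2% of the partners, against 14.2% of all tested genes called in either direction, 6.12% higher and 8.06% lower. Of 16117 genes above 1 CPM in at least 3 libraries, 16.6% were called. The median log2 change of the partners was 0.19, against -0.01 over all tested genes, and the partners ran from -0.03 to 0.43.

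Among the JADE scaffolds, Jade2 rose in the knockout. Its libraries gave 91.3, 96.9 and 99.7 CPM in the knockout, against 71.9, 71.2 and 70.8 CPM in the controls. The groups did not overlap, and the controls lay within 1.1 CPM of each other. The log2 change was 0.43 (SE 0.08, 95% interval 0.27 to 0.59, edgeR adjusted p = 0.000998), a 1.35-fold rise, and it passed in all 23 other settings, at 0.41 to 0.50. Jade1, whose protein is also known to bind the tumour suppressor VHL, gave 87 to 88.7 CPM in the knockout and 86.4 to 92.6 CPM in the controls. Its log2 change was -0.03 (SE 0.07, 95% interval -0.18 to 0.12, adjusted p = 0.839). Jade3, which lies on the X chromosome, gave 15.1 to 21.8 CPM in the knockout and 11.8 to 20 CPM in the controls, overlapping, at a log2 change of 0.17 (SE 0.18, adjusted p = 0.582).

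Among the BRPF scaffolds, Brpf3 was higher in the knockout. It gave 117, 136 and 120 CPM in the knockout libraries, against 95.4, 108 and 92.8 CPM in the controls. The groups did not overlap, and the log2 change was 0.33 (SE 0.08, edgeR adjusted p = 0.0129). The call was lost with Xist as a covariate (0.28, adjusted p = 0.271), with knockout 3, the library with little Xist, as the only knockout library (0.29, 0.19), without knockout 2 (0.27, 0.0647), in a fit of the 6 libraries compared (0.33, 0.0698) and under quality weights (0.33, 0.0799). The change itself stayed at 0.27 to 0.33 in these fits. With 1 knockout library, that library is assumed to vary like those of the other groups, here and wherever knockout 3 stands alone, and fewer libraries alone make a call harder to reach. Brd1, the most abundant scaffold RNA, gave 199 to 221 CPM in the knockout and 175 to 199 CPM in the controls, a log2 change of 0.13 (SE 0.07, adjusted p = 0.276). Brpf1, best known for activating KAT6A and KAT6B, gave 57.3 to 71.7 CPM in the knockout and 53.9 to 61.4 CPM in the controls (0.19, SE 0.10, adjusted p = 0.22).

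The readers and Meaf6 did not pass in the knockout. Ing5 gave 49.7, 53.2 and 51.4 CPM in the knockout, against 41.2, 46.1 and 44.9 CPM in the controls. These groups did not overlap, as in 25.7% of tested genes (12.2% higher and 13.5% lower in the knockout), and the log2 change of 0.22 (SE 0.09) had an edgeR adjusted p of 0.106. Ing4 gave 82 to 94.3 CPM in the knockout and 78.2 to 107 CPM in the controls, with a log2 change of -0.01 (SE 0.10, 95% interval -0.22 to 0.20). Meaf6 gave 25.3, 23.3 and 23 CPM in the knockout, against 24.3, 19.3 and 11.6 CPM in the controls. Its controls thus spread over more than the whole difference, and the log2 change was 0.37 (SE 0.18, adjusted p = 0.197). Without control 1, the highest control for Meaf6, it was 0.64 and passed (adjusted p = 0.023). The differing fibroblast and B-cell marker sums and Xist levels of the knockout and control libraries are given above. Their epithelial sums overlapped, but single epithelial markers did not. Krt14 stood at 35.3 to 40 CPM in the knockout and 65.6 to 144 CPM in control. Aire stood at 490 to 577 CPM in the knockout and 596 to 668 CPM in control. Foxn1 went the other way, at 229 to 234 CPM in the knockout and 175 to 218 CPM in control. The part of the marker sums and of these markers in these results was not tested.

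With WM-3835, 4 of the 9 partners rose and none fell: Jade1, Jade2, Ing4 and Meaf6. That is 44.4% of the partners, against 18.7% of all tested genes called in either direction, 9.34% higher and 9.35% lower; above 1 CPM, 22.2% of genes were called. The partners' median log2 change was 0.20, against -0.01 over all tested genes. The libraries of 6 partners did not overlap between WM-3835 and DMSO, against 46.1% of tested genes. Summed marker levels of each other cell type listed overlapped between WM-3835 and DMSO libraries, but single markers did not. The fibroblast marker Pdgfra stood at 14.3 to 21.6 CPM with WM-3835 and 0.86 to 1.33 CPM with DMSO, Dcn at 7.18 to 10.8 CPM with WM-3835 and 15.6 to 22 CPM with DMSO, and Thy1 at 0.0347 to 1.23 CPM with WM-3835 and 4.95 to 7.89 CPM with DMSO. Among epithelial markers, Aire stood at 510 to 586 CPM with WM-3835 and 1120 to 1260 CPM with DMSO. Psmb11, Foxn1, H2-Aa and Krt14 were also lower with WM-3835, without overlap. Epcam went the other way, at 751 to 801 CPM with WM-3835 and 515 to 568 CPM with DMSO. The remaining epithelial markers overlapped. The part of these markers in the partners' changes was not tested.

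**Figure D2:**
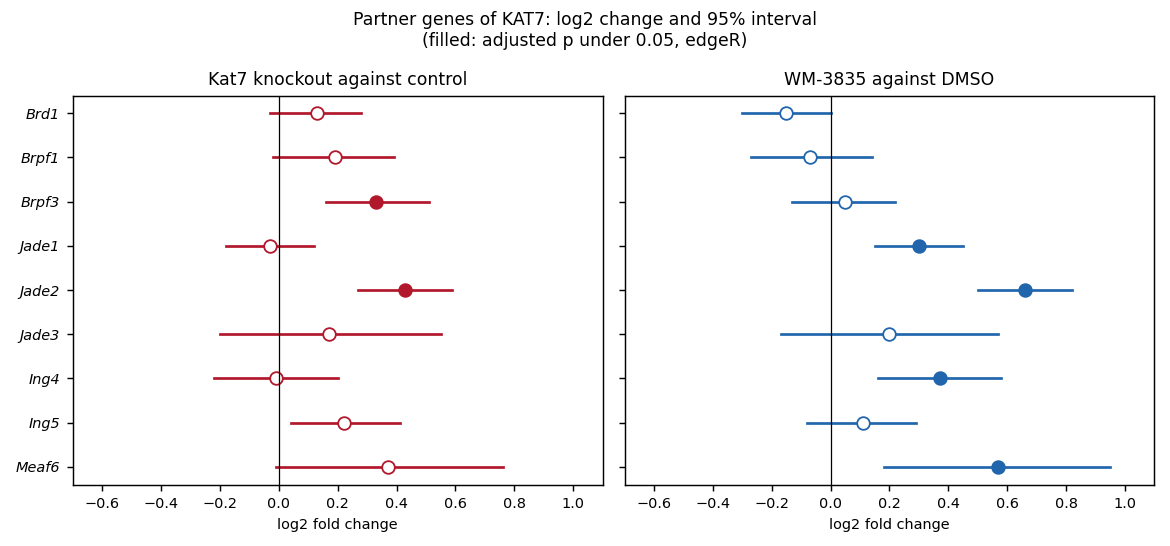
Log2 change of the 9 partner genes (points) with 95% intervals in the knockout comparison (left) and the inhibitor comparison (right), horizontal axis in log2 units, filled points where the edgeR adjusted p was under 0.05. Jade2 is filled on both sides, at 0.43 and 0.66; Brpf3 is filled on the left, and Jade1, Ing4 and Meaf6 on the right.

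Jade2 had the largest change of the partners with the inhibitor. It gave 110, 107 and 101 CPM with WM-3835, against 64.2, 71.1 and 66.6 CPM with DMSO. The groups lay far apart, and the log2 change was 0.66 (SE 0.08, 95% interval 0.50 to 0.82, edgeR adjusted p = 6.86e-06), a 1.58-fold rise. It passed in all 22 other settings, at 0.61 to 0.70. DMSO and control libraries overlapped for Jade2 and differed by -0.08 (SE 0.08, adjusted p = 0.483).

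Jade1 also rose with WM-3835, at 89.6, 86.4 and 89 CPM, against 71, 68.3 and 75.9 CPM with DMSO. The log2 change was 0.30 (SE 0.07, edgeR adjusted p = 0.00708), and it passed in all 22 other settings. The DMSO libraries were the low ones among the 4 groups: Jade1 averaged 71.7 ± 3.86 CPM with DMSO and 89.8 ± 3.17 CPM in control, a log2 difference of -0.32 (SE 0.07, adjusted p = 0.00304). The level with WM-3835, 88.3 ± 1.72 CPM, was thus within 2 CPM of that in control. Jade3 gave 20.6 to 22.3 CPM with WM-3835 and 17.1 to 19.8 CPM with DMSO, without overlap, at a log2 change of 0.20 (SE 0.18, adjusted p = 0.512).

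Ing4 and Meaf6 rose with WM-3835 as well. Ing4 gave 121, 120 and 132 CPM with WM-3835, against 101, 96.2 and 90.9 CPM with DMSO, a log2 change of 0.37 (SE 0.10, edgeR adjusted p = 0.013). These groups did not overlap, but the call was lost without DMSO 3 (0.33, adjusted p = 0.0729) or WM-3835 3 (0.33, 0.0684). Meaf6 gave 33.4, 35.1 and 33.8 CPM with WM-3835, against 25.5, 20.9 and 22.4 CPM with DMSO. Its log2 change was 0.57 (SE 0.18, adjusted p = 0.0365), and it did not pass when any 1 of DMSO 2 (0.51, adjusted p = 0.142), DMSO 3 (0.54, 0.115), WM-3835 1 (0.58, 0.0846), WM-3835 2 (0.55, 0.0966), WM-3835 3 (0.57, 0.0872) or knockout 2 (0.56, 0.0515) was left out. Ing5, the less abundant reader, gave 61.2 to 64.2 CPM with WM-3835 and 53.8 to 62 CPM with DMSO, overlapping, at 0.11 (SE 0.09, adjusted p = 0.466).

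No BRPF scaffold passed with WM-3835. Brd1 gave 152, 156 and 151 CPM with WM-3835, against 164, 176 and 169 CPM with DMSO. All 3 treated libraries were the lower ones, and the log2 change was -0.15 (SE 0.07, edgeR adjusted p = 0.176); it passed under quality weights (-0.14, adjusted p = 0.0355). Brpf1 gave 56.8 to 61.5 CPM with WM-3835 and 59 to 64.4 CPM with DMSO (log2 -0.07, SE 0.10). Brpf3 gave 141 to 149 CPM with WM-3835 and 127 to 146 CPM with DMSO (log2 0.05, SE 0.08).

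The makeup of the scaffolds within a library does not depend on how libraries are scaled. Summed over each family, BRPF RNA was 1.6, 1.67 and 1.68 times JADE RNA per length with WM-3835, against 2.3, 2.29 and 2.31 times with DMSO. These groups did not overlap. In the knockout the ratio was 1.93, 2.13 and 1.95, against 1.77, 2.1 and 2.13 in the controls, and these overlapped. The summed JADE level was 40.8 ± 1.15 RPKM with WM-3835 and 30.5 ± 0.513 with DMSO, and 37.9 ± 0.924 in the knockout and 33.3 ± 1.64 in control. The summed BRPF level was 67.3 ± 0.416 RPKM with WM-3835 and 70.3 ± 1.51 with DMSO, and 75.9 ± 2.42 in the knockout and 66.5 ± 3.82 in control.

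Within the JADE family, Jade2 exceeded Jade1 in every knockout and WM-3835 library. The ratio of Jade2 to Jade1 per length was 1.02, 1.07 and 1.1 in the knockout, against 0.774, 0.804 and 0.746 in control. It was 1.2, 1.21 and 1.11 with WM-3835, against 0.882, 1.02 and 0.857 with DMSO. Neither pair of groups overlapped, and DMSO 2 was the one library of the baselines above 1. Jade2 made up 39% to 43.1% of JADE RNA in the knockout and 33.6% to 36.3% in control, and 41.5% to 43.5% with WM-3835 and 34.6% to 38.8% with DMSO. Within the BRPF family, Brpf1 held 16.4% to 21.6% in all 12 libraries. Brd1 held 44% to 44.9% with WM-3835 and 45.5% to 49.7% with DMSO, and 51.7% to 54.6% in the knockout and 54.5% to 56.9% in control.

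**Figure D3:**
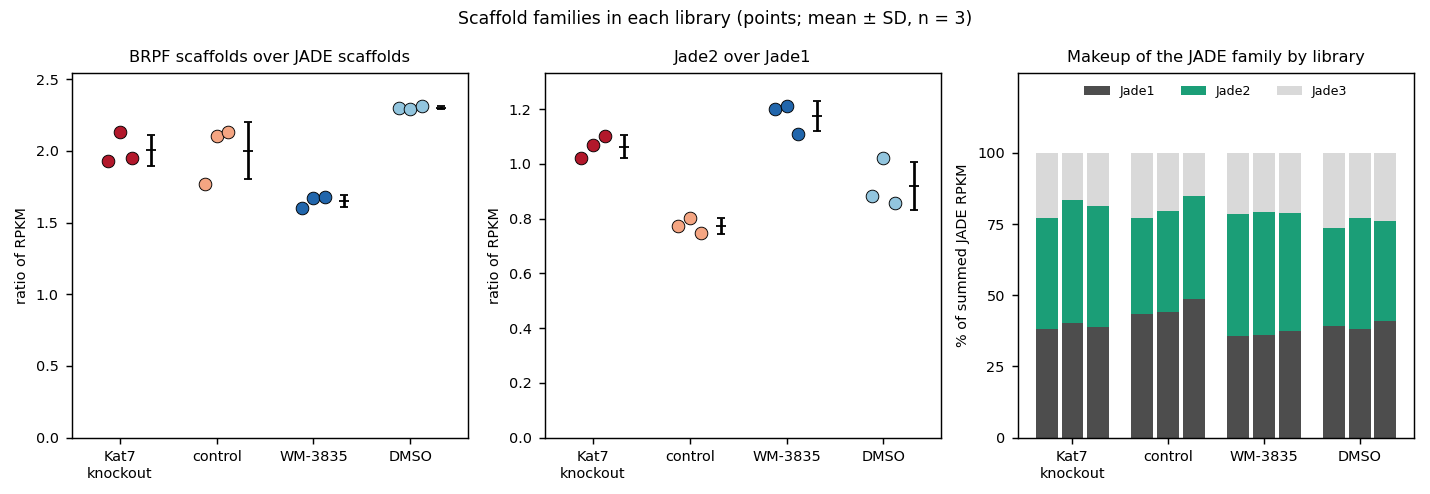
Ratio of summed BRPF to summed JADE RPKM (left), ratio of Jade2 to Jade1 RPKM (middle) and percent of JADE RPKM held by each gene (right), for each of the 12 libraries, with mean and SD (n = 3) in the first panels. The WM-3835 libraries lie at 1.6 to 1.68 and the DMSO libraries at 2.29 to 2.31 on the left, and the knockout and WM-3835 libraries lie above 1 in the middle.

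The changes in the knockout and with WM-3835 were set against each other in 1 model, as the knockout change minus the inhibitor change. Kat7 differed, by -6.93 (SE 0.16, edgeR adjusted p = 2.47e-15), as did 10.1% of all tested genes (4.41% with a positive and 5.69% with a negative difference). None of the 9 partners differed by edgeR at the adjusted threshold, although 5 had an unadjusted p under 0.05. The share of all tested genes under that unadjusted threshold was not computed. DESeq2 called 2 (Brd1, 0.28, adjusted p = 0.048, and Jade1, -0.32, 0.023), where it called 13.2% of all tested genes. By limma-voom 0 partners were called, and 9.76% of all tested genes. The differences were -0.33 for Jade1 (SE 0.10, adjusted p = 0.0515), -0.38 for Ing4 (SE 0.14, 0.0988), 0.27 for Brd1 (SE 0.10, 0.0994), 0.28 for Brpf3 (SE 0.12, 0.146) and -0.23 for Jade2 (SE 0.11, 0.206). The 95% interval for Jade2 ran from -0.45 to 0, and that for Meaf6 from -0.74 to 0.35. Leaving out 1 control library made some of them pass: Ing4 without control 1 (-0.46, adjusted p = 0.0346), Brpf3 (0.37, 0.0475) and Jade1 (-0.34, 0.0489) without control 2, and Brd1 without control 3 (0.33, 0.0437).

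The baselines differed for 3 partners. In DMSO against control, where genotype label and treatment differ together, Brpf3 was higher by 0.50 (SE 0.08, edgeR adjusted p = 0.00019), Ing5 was higher by 0.39 (SE 0.09, adjusted p = 0.00309) and Jade1 was lower (-0.32, SE 0.07, adjusted p = 0.00304). Of all tested genes 24.6% were called, 11.4% higher and 13.3% lower with DMSO. The libraries of these 3 partners alone did not overlap, against 38.9% of tested genes (19.6% higher and 19.4% lower). Summed markers of other cell types separated these groups too. Endothelial markers summed to 2.41 to 3.93 CPM with DMSO and 8.42 to 20.7 CPM in control. Most of that gap lay in Tek (1.54 to 2.02 CPM with DMSO, 6.35 to 18.6 CPM in control). Pecam1 was also lower with DMSO, and Cdh5, Kdr and Emcn overlapped. Thymocyte markers summed to 13.2 to 13.5 CPM with DMSO and 16.5 to 24.6 CPM in control. Of these, Ptprc alone did not overlap (0.674 to 2.13 CPM with DMSO, 4.46 to 13.1 CPM in control), and Lck leaned higher with DMSO. B-cell markers summed to 1.12 to 2.27 CPM with DMSO and 2.29 to 3.12 CPM in control, beside the fibroblast sums above. Epithelial sums overlapped, but single epithelial markers separated these groups in both directions. Aire stood at 1120 to 1260 CPM with DMSO and 596 to 668 CPM in control. Krt5 stood at 2520 to 3220 CPM with DMSO and 4760 to 5120 CPM in control. The part of all these markers in the differences between the baselines was not tested. Brpf3 stood at 140 ± 10.7 CPM with DMSO and 98.6 ± 7.95 CPM in control, and its knockout level of 124 ± 10.2 CPM lay between them. None of the 3 passed with Xist as a covariate: Brpf3 was then at 0.43 (adjusted p = 0.168), Ing5 at 0.40 (0.228) and Jade1 at -0.32 (0.248). Xist separates DMSO from control completely, so this covariate nearly repeats the comparison: the SE of Brpf3 was 0.17 with it and 0.08 without it, and the lost calls do not bear on the size of the differences. Meaf6 (0.59, adjusted p = 0.0202) passed without control 1, and Ing4 (0.25, 0.0472) without control 3. Of the list genes described next, Kat6b (0.29), Ruvbl2 (0.34), Brd8 (0.24), Yeats4 (0.29) and Orc2 (0.41) were higher with DMSO than in control. None of these 5 passed with Xist as a covariate, and over all 22 other settings Yeats4 missed in 15, Kat6b in 6, Brd8 in 4, Orc2 in 2 and Ruvbl2 in 1. This comparison shares the control libraries with the knockout comparison and the DMSO libraries with the inhibitor comparison.

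Complexes that share subunits with those of KAT7 were read from a list of 17 genes of the KAT6A, KAT6B and TIP60 complexes. In the knockout 2 of 17 rose and none fell (median log2 0.06), where 14.2% of all tested genes were called and 6.12% were higher. Kat6b, the catalytic subunit of the MORF complex, rose by 0.31 (SE 0.09, edgeR adjusted p = 0.0306), at 86.4 ± 7.78 CPM in the knockout and 69.7 ± 2.57 CPM in control. The control was its lowest group, and DMSO libraries averaged 84.9 ± 10.1 CPM. The enhancer of polycomb gene Epc2, a TIP60 scaffold, rose by 0.38 (SE 0.08, edgeR adjusted p = 0.0042). Neither passed with Xist as a covariate (Kat6b 0.29 and adjusted p = 0.301, Epc2 0.31 and 0.196) or with knockout 3 alone (Kat6b 0.30 and 0.209, Epc2 0.34 and 0.126). Kat6b also missed on the 6 libraries compared (0.103), under quality weights (0.178) and without control 3 (adjusted p = 0.0566), knockout 2 (0.12) or knockout 3 (0.0555). With WM-3835, where 18.7% of all tested genes were called and 9.34% were higher, 5 of 17 rose and none fell (median 0.14): Kat6b by 0.38 (SE 0.09, adjusted p = 0.00614), and the TIP60 subunits Epc1 (0.25), Trrap (0.39), Ep400 (0.45) and Brd8 (0.30). The call of Epc1 (adjusted p = 0.0414) was lost in 12 of 22 other settings, at up to 0.14.

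Of the 7 MYST and ING paralogues outside the KAT7 complexes, Kat6b was the 1 that rose in the knockout and none fell; with WM-3835 Kat6b rose and Ing1 fell. These counts, 1 and 2 of 7, stand beside 14.2% and 18.7% of all tested genes called in the knockout and with WM-3835. Ing1, a reader in the SIN3 deacetylase complex, averaged 137 ± 13.2 CPM with WM-3835 and 227 ± 32.3 CPM with DMSO, a log2 change of -0.72 (SE 0.12, edgeR adjusted p = 0.000296). In the knockout Ing1 averaged 204 ± 4.69 CPM and in control 200 ± 38.9 CPM. The catalytic genes Kat6a, Kat5 and Kat8 did not pass in either comparison, at log2 changes of 0.14, 0.03 and -0.11 in the knockout and -0.04, 0.16 and -0.12 with WM-3835.

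Replication origin licensing, a process to which KAT7 is known to contribute, was read from 15 genes. With WM-3835, 8 of 15 rose and none fell (median log2 0.40), where 9.34% of all tested genes were called higher. They were the origin recognition subunit gene Orc6 (0.40), the loading factor gene Cdt1 (0.72, SE 0.16, edgeR adjusted p = 0.00387) and the helicase genes Mcm2 (0.55), Mcm3 (0.61), Mcm4 (0.60), Mcm5 (0.71, SE 0.12, adjusted p = 0.000248), Mcm6 (0.63) and Mcm7 (0.37). Orc6 lost its call in 14 of 22 other settings (adjusted p up to 0.231) and Mcm7 in 5 (up to 0.107), and 6 to 8 of the 15 rose in every one. Mcm5 averaged 49.5 ± 5.42 CPM with WM-3835 and 30.2 ± 1.85 CPM with DMSO. In the knockout, where 14.2% of all tested genes were called and 6.12% were higher, Orc2 alone of the 15 rose. Its log2 change was 0.44 (SE 0.12, edgeR adjusted p = 0.0173), and the median of the list was 0.18. The call of Orc2 was lost in 5 of 23 other settings, among them with Xist as a covariate (0.48, adjusted p = 0.161) and without knockout 2 (0.40, 0.0587). With knockout 3 alone its log2 change was 0.48. Orc2 also missed on the 6 libraries compared (0.106) and under quality weights (0.0979). Mcm6 changed by -0.29 in the knockout (edgeR adjusted p = 0.097), and by -0.44 without knockout 3, when it passed (0.0146). Of all tested genes, 10.1% were called for the difference between the knockout and inhibitor changes. The difference between the changes passed for Mcm6 (-0.92, SE 0.16, adjusted p = 0.000972) and, by edgeR, for none of the other 14; DESeq2 also called Orc2 (0.48, adjusted p = 0.0432), and edgeR called Orc2 (0.58, 0.0266) and Mcm5 (-0.52, 0.0455) without control 1, and Orc4 (0.60, 0.0192) without control 3.

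**Figure D4:**
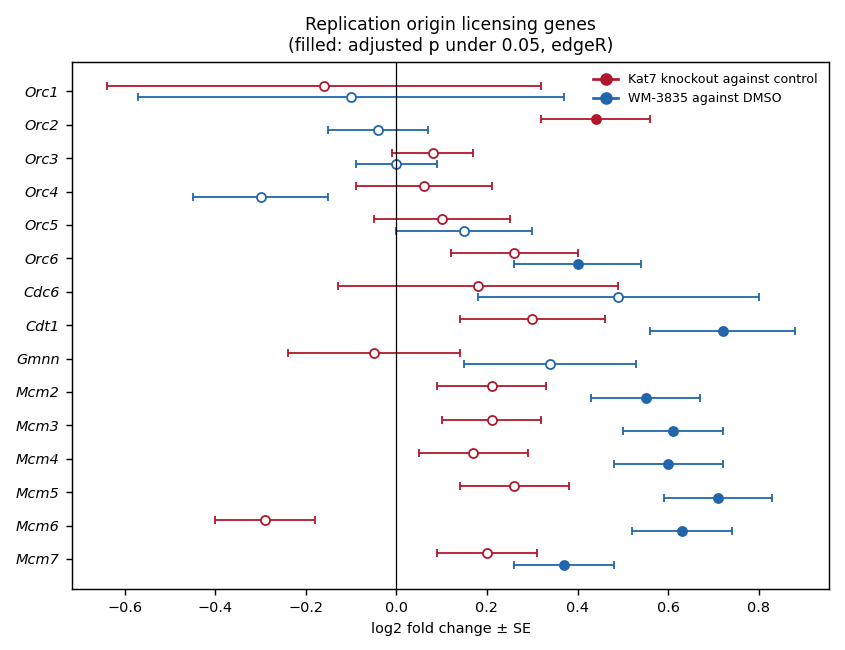
Log2 change (points) with its standard error for 15 replication origin licensing genes, for the Kat7 knockout (red) and for WM-3835 (blue), filled where the edgeR adjusted p was under 0.05. With WM-3835 the 6 Mcm genes, Cdt1 and Orc6 are filled, and in the knockout Orc2 is.

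The genes closest to each member called in the knockout or with WM-3835, in their pattern over the 12 libraries, were found by the mean absolute difference of log2 CPM scaled to unit SD, for which the median gene lay at 1.07 to 1.14. For Kat7 they were Zfp365 (0.196), Fads1 (0.207) and Cst8 (0.215). For Jade2 they were Tmem87a (0.162), Gbp10 (0.167) and Lipm (0.177). For Jade1 they were Entpd5 (0.19), Lbp and Dapk1 (0.208 each). For Brpf3 they included Trub1 (0.177) and Leng8 (0.178). For Ing4 they were Ccdc97 (0.179), Maip1 (0.254) and Dffa (0.299), and for Meaf6 they were Chchd10 (0.208), Abcf2 (0.212) and Ncdn (0.216). The measure leaves out the size of the change.

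Some counts could hold reads of other transcripts. In the GENCODE annotation of the same build, Ing4 shares 1855 exonic bases (34.9% of its exons) with Gm44597, a transcript on the same strand. The library kit does not mark strand, and transcripts on the opposite strand share 3.76% of the exonic bases of Brpf1 (Gm15492), 3.41% of Jade1 (Gm31266) and at most 3.14% of Brpf3 (AC140278.1). A stretch of 240 bases of Brpf3 matched other genes at 95% to 96.2% identity. No other member shared exonic bases with another gene, or a stretch of at least 100 bases at 95% identity or more, in that annotation.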

How the data were processed

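Deposited values are whole-number counts per gene; the authors counted with featureCounts and used genome build mm10, per the submitters' processing notes. Aligner, annotation and strandedness were not given in the sources used here. Libraries were TruSeq RNA v2, read as 75-base pairs, per the labels' protocols. The 12 sample files were identical to the series table. The 1312 rows without a symbol (0.657% to 0.743% of counts) were left out.

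The test was that of edgeR 4.0.16 (R 4.3.3): TMM scaling, filterByExpr, a quasi-likelihood fit of 4 group means to all 12 libraries, Benjamini-Hochberg adjustment over all 18670 genes, called under 0.05, two-sided. Intervals are 95%. The fit was tested on simulated data. Alternatives were DESeq2 1.42.0, limma-voom (limma 3.58.1), scaling by RLE or by the upper quartile, other filters, quality weights, own libraries, a replicate block, Xist as a covariate, knockout 3 alone and each library left out. Near-identical stretches were searched with blastn 2.17.0. All members, the called genes of each list and, for each member called in the knockout or inhibitor comparison, the 3 genes closest in pattern are named by rule (predicted genes left out, and 1 gene close to Brpf3 is not reported here); Kat6a, Kat5 and Kat8 were added for their role. Members and lists were chosen with earlier results of these data known. No replicate pair came within counting noise (chi-square per gene 9.07 to 54.1). Pairs of control libraries lay at 44.4 to 54.1, and pairs within the other groups at 9.07 to 23.5. The main fit nevertheless shares its estimate of the spread of a gene over all 4 groups.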

Additional observations from a re-analysis of the deposited data

Results flagged for a closer look

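Kat7, Ing1 and Mcm6 had a knockout change that differed from the inhibitor change by the test of the difference in the edgeR model of all 12 libraries. By the same test 10.1% of all tested genes differed, 4.41% with a positive and 5.69% with a negative difference. Kat7 differed by -6.93 (knockout change minus inhibitor change, log2). It is the deleted gene, and it passed in all 22 other settings, at -7.02 to -6.70. Ing1 differed by 0.75 (adjusted p = 0.00709), with 204 ± 4.69 CPM in the knockout and 200 ± 38.9 CPM in control, and 137 ± 13.2 CPM with WM-3835 and 227 ± 32.3 CPM with DMSO (SD, n = 3). The Ing1 difference missed the threshold once Xist was a covariate (0.83, adjusted p = 0.0513) or knockout 3 stood alone (0.80, 0.0629). Mcm6 differed by -0.92 (adjusted p = 0.000972), from a log2 change of -0.29 in the knockout and 0.63 with WM-3835. It was -0.59 with Xist as a covariate (adjusted p = 0.0684) and -0.63 with knockout 3 alone (0.0506).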

How the results depend on the processing

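Of 890 recomputed log2 changes of the 10 genes (40 results), 835 kept their direction and side of the threshold, 16 lost a call, 12 gained one and 27 changed sign, all 27 in values that passed in neither fit. Those outside single-library omissions lay at 0 (Brpf3 with WM-3835, upper-quartile scaling), 0.01 (Ing4 in the knockout with limma-voom, quality weights or Xist as a covariate), 0.04 (Ing4, knockout 3 alone), 0.02 (Jade2, DMSO against control, Xist as a covariate), and 0 to 0.01 (Jade3, difference of changes, upper-quartile, limma-voom, no filter and quality weights). With each library left out the range was -0.02 to 0.08 for Brpf3 with WM-3835, -0.09 to 0.14 for Ing4 and -0.04 to 0 for Jade1 in the knockout, and -0.19 to 0.17 for Jade3 and -0.42 to 0.07 for Meaf6 in the difference of changes. With each library left out, called members numbered 2 to 4 in the knockout, 2 to 4 with WM-3835, 1 to 3 for the difference and 3 to 4 for DMSO against control. With WM-3835 they numbered 6 under quality weights and 5 in the fit of the 6 libraries; in the knockout they numbered 2 in both, in the fit of knockout 3 alone and in that with the Xist covariate. DESeq2 called 3 for the difference (13.2% of all tested genes), and Xist as a covariate called 0 for DMSO against control (4.3% of all tested genes). The causes were not tested. Over all genes, 2646 were called in the knockout, against 483 with Xist as a covariate, 704 with knockout 3 alone, 1157 in the fit of the 6 libraries and 1180 with quality weights. With WM-3835, 3490 were called, against 6070 in the fit of the 6 libraries and 6589 with quality weights. Ordered by CPM without gene length, 2 of the 10 members kept their rank in control. The deviations of same-numbered replicates correlated at -0.03 to 0.01 for knockout and control and at 0.13, 0.17 and 0.02 for WM-3835 and DMSO, where the other pairs ran from -0.16 to 0.05; WM-3835 3 did not correlate best with its own number, and the numbers were not taken as pairs; with the replicate block the counts of called members were 3, 4, 1 and 3, as without it, and 2542 genes were called in the knockout. Kat7 in the knockout rested on 22 to 25 counts, and every other member on at least 410 counts in each library. The licensing list kept 6 to 8 higher genes with WM-3835, with 1 lower on the 6 libraries and with quality weights.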
